A study of Mus musculus with 12 samples.

Results

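Hippocampal transcripts of mice killed at circadian time 18 (CT18), the middle of the subjective night, were compared with those of mice killed at CT12, subjective dusk. The comparison took 6 of the 12 samples of a circadian series, the 3 labelled CT18 and the 3 labelled CT12, chosen by that label alone. All 6 were wild-type adult males held in constant darkness, with total RNA of each hippocampus sample on 1 array; the strain is not given in the sources used here. CT12 mice had spent 48 hours in darkness and CT18 mice 30 hours, so circadian time and time in darkness cannot be told apart.

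The circadian clock of mammalian cells is a loop in which BMAL1 (encoded by Arntl) and CLOCK bind E-box sequences and switch on their own repressors, among them the Per and Cry genes, Ciart and Nr1d1. The same E-boxes drive output regulators such as Dbp, and the hippocampus carries a clock of this kind. Mice are nocturnal: dusk opens their active phase, corticosterone is then near its daily high, and activity, feeding and body temperature are raised during the night. Chaperones of the endoplasmic reticulum (ER) fold secreted and membrane proteins, and many are switched on together through ER stress elements in their promoters.

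Each value is the log2 of a fluorescence intensity minus the same array's 75th percentile, so a difference of 1 is a doubling. Values are listed in the order CT12 mice 10, 11 and 12, then CT18 mice 14, 15 and 16, each sample being called a mouse by the number in its label, although the labels do not say whether a sample is 1 animal or a pool. On these 6 arrays 59.3% to 67.1% of spots lay well above background and 0 were saturated. Each of the 3 slides held 1 array of each time, at the same position for a given time on every slide, so effects of position and of time cannot be told apart. The p-values rest on the spread between samples of the same time over all 12 arrays of the series. This spread may be partly technical.

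CT12 mouse 11 stood apart from every other library. Its correlation with the other 11 arrays lay between 0.945 and 0.965, against 0.984 to 0.995 among those 11. In all, 3504 genes differed by more than 1 log2 unit from the mean of CT12 mice 10 and 12. The markers of this library went against its label of hippocampus. The 9 forebrain transcription factors had a median of -5.48 relative to each gene's median over the 12 arrays, with Emx1 and Emx2 not well above background, and the 7 excitatory neuron markers had a median of -4.57. The 10 dentate granule cell markers were all well above background, with a median of -1.61. The 16 cerebellar markers had a median of 4.14, and their summed linear signal was 479 against 18.6 to 36.7 in the other 5 libraries. The counts over all genes tested are therefore given with and without this library. Each gene described as called with all libraries has its result without it. CT12 mouse 10 had a median of 1.43 over 9 thalamic markers and -0.64 over the excitatory markers. Choroid plexus markers, 13 genes, were high in CT12 mice 10 and 11 and in CT18 mouse 14, with medians of 5.03, 3.61 and 4.01, and lay between -0.48 and -0.30 in the other 3 libraries. The part of these differences in the results below was not tested. In whole tissue, fewer cells of a type and less RNA per cell cannot be told apart.

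**Figure D1:**
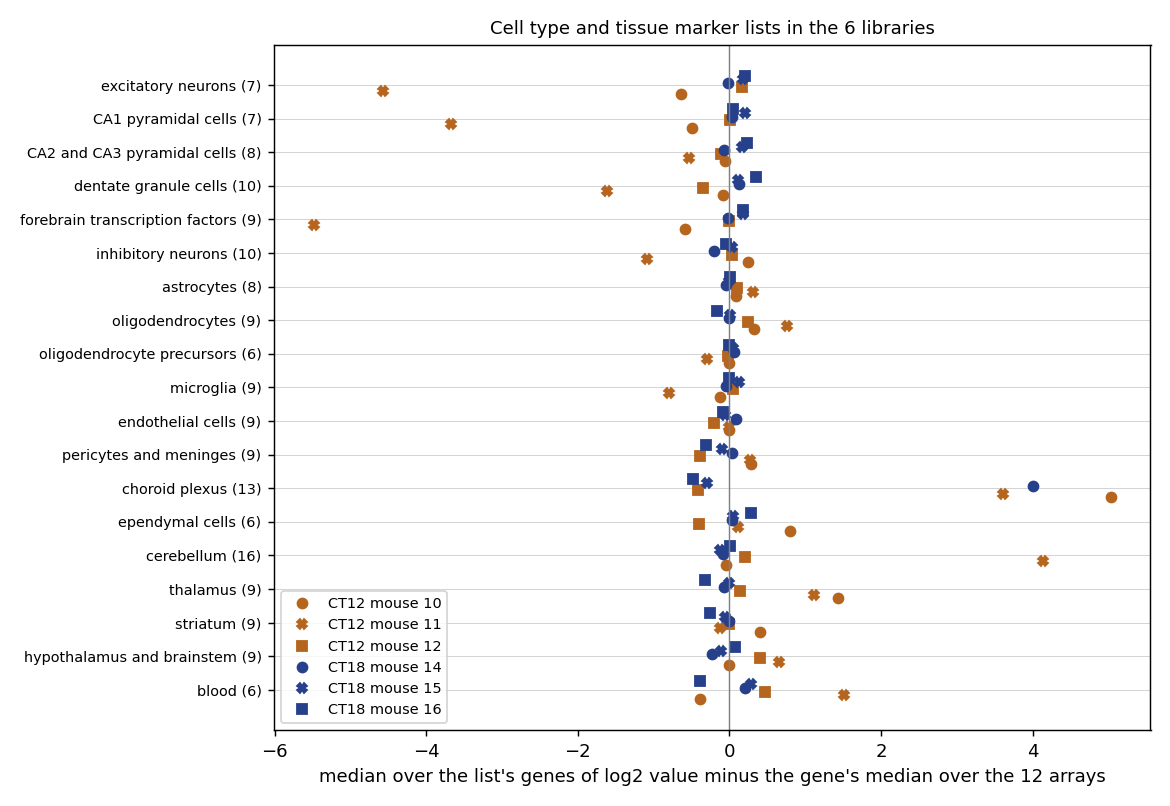
Median level of each marker list (number of genes in brackets) in the 6 libraries, as log2 value minus the gene's median over the 12 arrays; brown marks CT12, blue CT18. CT12 mouse 11 lies at -5.48 for forebrain transcription factors and at 4.14 for cerebellar markers, and the choroid plexus list separates CT12 mice 10 and 11 and CT18 mouse 14 from the other 3.

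The genes that differed between the night and the dusk libraries included 8 ER chaperones and folding enzymes, which were higher at CT18, and 2 clock repressors, 4 glucocorticoid-responsive genes and 2 cold-inducible RNA-binding proteins, which were lower. Of 24084 genes tested with limma over all 12 arrays, 97 passed a Benjamini-Hochberg adjusted p of 0.05 (0.403%). Of these, 68 were higher at CT18 (0.282%) and 29 lower (0.12%). Without CT12 mouse 11, 121 of 24166 genes passed (0.501%), 91 higher (0.377%) and 30 lower (0.124%). Both fits shared 69 genes, all 69 with the same direction, while 28 were called only with the library and 52 only without it. All 97 genes had the same sign on each of the 3 slides, which follows in large part from the call itself, made on the same arrays. With the slide as a block, 115 genes were called (0.477%), 68 of them among the 97, and 59.1% of the 115 were higher at CT18 against 70.1% without the block. The block left 53 calls without CT12 mouse 11 (0.219%), 27 higher and 26 lower, and 22 genes were called in all 4 fits.

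The count rested on single libraries. It was 53 without CT12 mouse 10, 1227 without CT12 mouse 12, 8 without CT18 mouse 14, 13 without CT18 mouse 15 and 0 without CT18 mouse 16, where 2183 genes had an unadjusted p under 0.05. Leaving out a mouse of the other times, which enter the estimate of the spread, gave 18, 13 and 40 for CT0 mice 1, 2 and 3, and 30, 14 and 16 for CT6 mice 5, 6 and 7. A fit on only the 6 arrays compared called 0 genes. The median SD within a time was 0.28 at CT12 and 0.14 at CT18. Of the called genes chosen by the naming rule, Ada, Ciart, Hspa5 and Sdf2l1 were called in 11 of the 12 repeats that each left out 1 mouse, Cirbp, Derl3 and Noxred1 in 10, and Inhba and P4ha1 in 9. Manf was called in 7 of them, H2bc6 and Tnni1 in 6, Nr1d1, Adam8, Mdga1, Scin and Arrdc2 in 5, and Pdia3, Pdia6, Dok3, Pla2g4e and 5033421B08Rik in 4. Chordc1, H3c15, Dapk2, Slamf9, Nxnl2 and A330015K06Rik were called in 3, Rbm3, Hif3a, Serpina3g and Rnf32 in 2, and Sgk1 and Potegl in 1. Every gene lost its call without CT18 mouse 16. Over the 12 repeats the difference ran from 1.46 to 1.61 for Sdf2l1 and from -1.68 to -1.55 for Ciart. It ran more widely for others, from 1.14 to 1.59 for Mdga1 and from -2.44 to -1.78 for 5033421B08Rik. Under the other alternatives, of processing and arrays fitted, some dim genes moved further. The difference ran from -2.36 to -0.75 for 5033421B08Rik, -1.65 to -0.55 for Potegl, -1.33 to -0.27 for Nxnl2 and 0.40 to 1.25 for Scin.

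**Figure D2:**
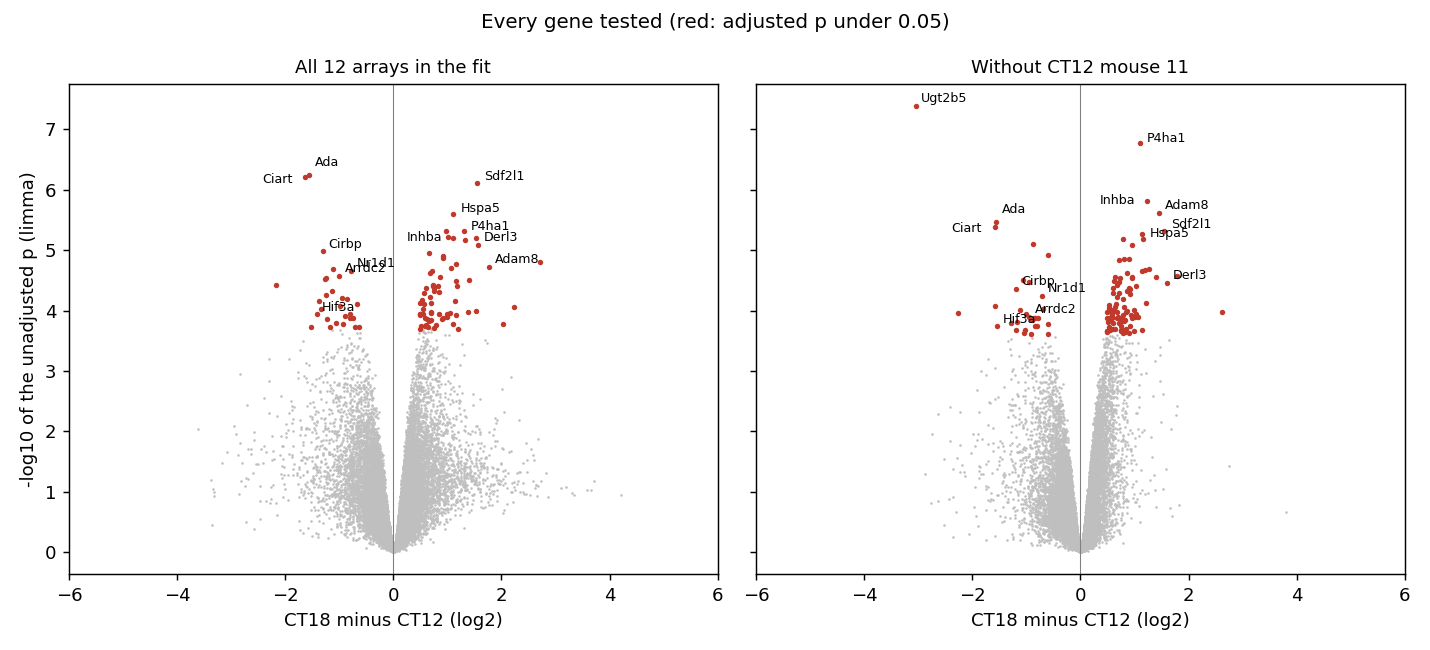
Difference between CT18 and CT12 (log2, horizontal) against -log10 of limma's unadjusted p (vertical) for every gene tested, with all 12 arrays (left) and without CT12 mouse 11 (right); red marks an adjusted p under 0.05. Sdf2l1, Hspa5, P4ha1 and Derl3 stand out on the higher side and Ada, Ciart and Cirbp on the lower side of both panels.

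ER chaperones and folding enzymes were the group with the most called members. Of 24 measured, 8 were higher at CT18 and 0 lower, beside 0.282% of all genes called higher. In 16 of the 24 the groups did not overlap, beside 10.7% of all genes with every night value higher and 7.69% with every night value lower. An unadjusted limma p under 0.05 was reached by 14, of which 13 lay above 0, beside 16.6% of all genes. The median difference of the list was 0.37, against 0 over all genes, and 0.31 without CT12 mouse 11, where 9 were called. Across the slides the median was 0.26, 0.38 and 0.47, and it stayed between 0.26 and 0.44 in every alternative run. With the slide as a block 10 members were called, and 4 with the block and without CT12 mouse 11. The list was written with earlier results of these data known.

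Sdf2l1, an ER-resident partner of BiP (probe at chr16:17130426-17130485 on mm9, minus strand), read -0.46, -0.41 and -0.33 at CT12 and 1.02, 1.10 and 1.32 at CT18. The groups lay more than 1 log2 unit apart. The difference was 1.55 (SE 0.14), a 2.92-fold higher level with an adjusted p of 0.00625, and 1.54 without CT12 mouse 11 (adjusted p 0.0158). Hspa5, which encodes BiP, the main HSP70-type chaperone of the ER (probe at chr2:34631913-34631972 on mm9, plus strand), read 4.16, 4.37 and 4.33 against 5.32, 5.35 and 5.52. Again no CT12 mouse reached a CT18 mouse. It was 2.15-fold higher (difference 1.11, SE 0.12, adjusted p 0.0151; 1.15 and 0.0158 without CT12 mouse 11). The protein disulfide isomerase gene Pdia6 read 4.28, 4.09 and 4.71 against 5.40, 5.53 and 5.64, a difference of 1.16 (SE 0.15, adjusted p 0.0238), and of 1.02 without CT12 mouse 11 (0.0287). Manf, an ER-resident secreted factor, went from 1.22, 1.38 and 1.31 to 2.21, 2.14 and 2.32 (difference 0.92, adjusted p 0.0217; 0.96 and 0.0267 without that mouse).

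The other called members were Pdia3, a disulfide isomerase acting with the lectin chaperones (0.68, adjusted p 0.025), Hyou1, an HSP70 relative that recharges BiP (0.82, adjusted p 0.0282), Calr, the lectin chaperone calreticulin (0.75, adjusted p 0.0284), and Hsp90b1, the ER form of HSP90 (0.55, adjusted p 0.0411). These passed without CT12 mouse 11 as well, with adjusted p of 0.0267, 0.0399, 0.0425 and 0.0291. Creld2 and the BiP cochaperone Dnajb11 lay just short of the threshold, at 0.69 (adjusted p 0.0502) and 0.58 (adjusted p 0.0524). Not every chaperone of the compartment shared the pattern. Canx, the membrane-bound partner of calreticulin, differed by 0.11 (adjusted p 0.761), P4hb by 0.03 (adjusted p 0.936) and Dnajb9 by -0.01 (adjusted p 0.984). The lowest member was Sil1, a nucleotide exchange factor of BiP, at -0.42 (adjusted p 0.142).

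The regulatory and degradative arm of the response gave 1 call, beside 0.282% of all genes called higher. Of 22 sensors, transcription factors and ER-associated degradation genes, the called gene was Derl3, a channel component of ER-associated degradation. It read -1.89, -1.86 and -2.06 at CT12 and -0.71, -0.29 and -0.10 at CT18, with no overlap. The difference was 1.57 (SE 0.19, 2.98-fold, adjusted p 0.0177), and 1.61 without CT12 mouse 11 (adjusted p 0.0267). Of the other 21 members, 6 had an unadjusted p under 0.05, all above 0, beside 16.6% of all genes in either direction. Xbp1, a transcription factor of the response, read 4.22, 4.67 and 4.70 against 5.03, 5.16 and 5.17 (0.59, adjusted p 0.0925), and Atf6b differed by 0.65 (adjusted p 0.0519). Values near 0 were seen for the sensors Ern1 (-0.01) and Eif2ak3 (-0.07) and for the stress factors Ddit3 (0.13) and Atf4 (-0.02). The list median was 0.07, and 0.13 without CT12 mouse 11. Whether it differed from that of the chaperones was not tested.

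Promoters of the leading genes are shown because the ER stress element, made of CCAAT, 9 bases of any kind and CCACG, and the E-box, CACGTG, can be read in them. RefSeq sequences on GRCm38.p6 of the 250 bases before each gene's start were searched on both strands. The ER stress element ends in CCACG, which was also searched alone, so each match to the first is one to the second. The ER stress element was found in 0.113% of 32851 such windows, in 8 of the 21 ER chaperone genes that had a window, in 5 of 42 windows of genes higher at CT18 and in 0 of 25 of genes lower at CT18. The list holds genes chosen as ER chaperones, so its share is a description. The 5 higher genes were Hspa5, Pdia6, Calr, Hsp90b1 and Derl3. Their matches are given 5′ to 3′ along the strand that holds the element, with the fixed letters in capitals:
Hspa5: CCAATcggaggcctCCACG
Pdia6: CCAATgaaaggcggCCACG
Calr: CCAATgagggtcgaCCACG
Hsp90b1, farther from the start: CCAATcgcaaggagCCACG
Hsp90b1, nearer to the start: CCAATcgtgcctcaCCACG
Derl3: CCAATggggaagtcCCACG

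Hspa5 has its match 65 bases before the gene start and Hsp90b1 has matches 212 and 107 bases before it. Those of Pdia6, Calr and Derl3 begin 98, 162 and 156 bases before the start. A match does not go with a call in every case. Canx, Dnajc3 and Ero1b hold the element as well, at differences of 0.11, 0.30 and 0.25 (adjusted p 0.761, 0.362 and 0.29), as does Creld2:
Canx: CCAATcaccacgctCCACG
Dnajc3: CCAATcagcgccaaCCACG
Ero1b: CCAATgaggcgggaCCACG
Creld2: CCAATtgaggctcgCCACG

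Sdf2l1, the most changed chaperone, holds no whole element in its window but 3 copies of the CCACG part, which 28.3% of all windows hold. The windows of Hspa5 (chr2:34771840-34772089, plus strand) and Sdf2l1 (chr16:17132384-17132633, minus strand) follow in the direction of transcription, with every match to a searched motif in capitals, CGTGG being CCACG on the other strand:
Hspa5: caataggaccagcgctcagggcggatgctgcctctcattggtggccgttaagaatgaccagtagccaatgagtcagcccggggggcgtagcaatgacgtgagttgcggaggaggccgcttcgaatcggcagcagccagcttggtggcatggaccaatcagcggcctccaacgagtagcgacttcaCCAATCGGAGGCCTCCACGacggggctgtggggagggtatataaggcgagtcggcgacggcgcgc
Sdf2l1: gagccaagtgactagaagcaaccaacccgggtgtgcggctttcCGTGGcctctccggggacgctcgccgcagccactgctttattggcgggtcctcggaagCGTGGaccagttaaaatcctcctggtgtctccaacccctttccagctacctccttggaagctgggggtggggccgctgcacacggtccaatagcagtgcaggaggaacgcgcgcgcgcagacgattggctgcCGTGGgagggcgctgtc

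The list written for chaperones outside the ER, which also names the heat shock factors Hsf1 and Hsf2, had the same number of measured members. Among 24 heat shock proteins and HSP90 partners, 1 was called, Chordc1, an HSP90 cochaperone, which read 1.88, 2.05 and 1.76 against 2.65, 2.50 and 2.65 (0.71, SE 0.10, adjusted p 0.0248; 0.78 and 0.0158 without CT12 mouse 11). Its groups did not overlap, and 0.282% of all genes were called higher. A further 10 members had an unadjusted p under 0.05, all above 0, beside 16.6% of all genes in either direction. Among the 10 were Dnaja1 (0.58, adjusted p 0.0519) and Hsph1, an HSP110 chaperone (0.84, adjusted p 0.075). The list median was 0.29 with and without CT12 mouse 11. Without that mouse 13 members had an unadjusted p under 0.05, all above 0, against 11 above 0 among the ER chaperones. The share of all genes there was 13.8% in either direction. The lists were not compared by a test. The heat shock element, GAA, TTC and GAA with 2 bases between them, was present in 0.466% of all windows and in 0 of the 42 windows of higher genes.

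**Figure D3:**
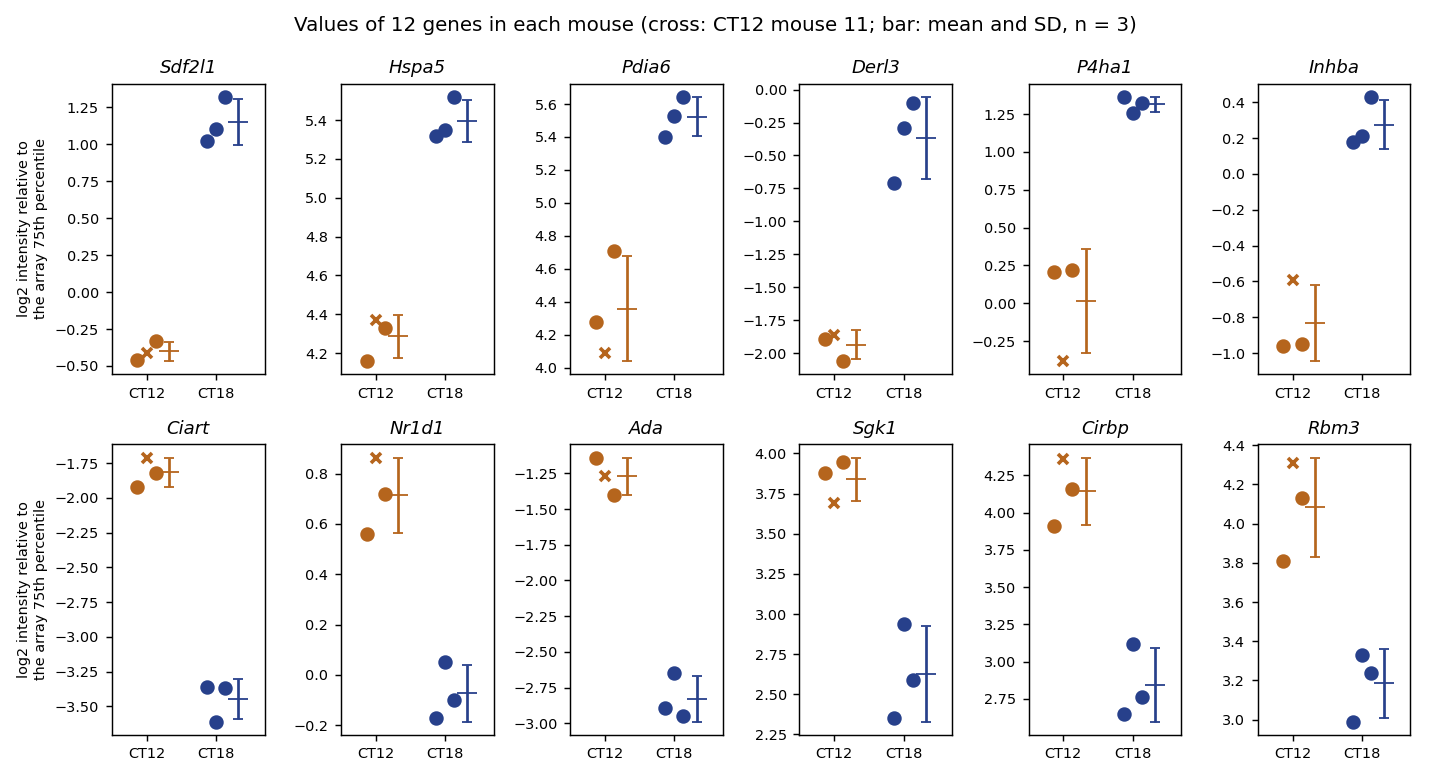
Values of 12 genes in each mouse, on the log2 scale set to 0 at the 75th percentile of each array, at CT12 (brown) and CT18 (blue); the cross is CT12 mouse 11, and the bars give the mean and SD of 3 mice. The 6 genes of the upper row are higher in every CT18 mouse and the 6 of the lower row are lower in every CT18 mouse.

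Among the 10 repressors of the clock loop, 2 were lower at CT18 and 0 higher, beside 0.12% of all genes called lower. Ciart, which blocks BMAL1 and CLOCK (probe at chr3:95682433-95682492 on mm9, minus strand), read -1.92, -1.71 and -1.82 at CT12 and -3.36, -3.61 and -3.37 at CT18. All 3 night values lay more than 1 log2 unit below the dusk values. The level was 3.09-fold lower (difference -1.63, SE 0.15, adjusted p 0.00625), and it was called in all 4 fits, with -1.58 without CT12 mouse 11 (adjusted p 0.0158). Nr1d1, which encodes the nuclear receptor REV-ERBα, a repressor of Arntl, read 0.56, 0.86 and 0.72 against -0.17, 0.05 and -0.10. It was 1.72-fold lower (difference -0.78, SE 0.11, adjusted p 0.0248), with an adjusted p of 0.0332 without CT12 mouse 11. Its relative Nr1d2 read 1.89, 2.39 and 1.82 against 1.51, 1.44 and 1.39, without overlap (difference -0.59, adjusted p 0.10).

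The Per and Cry genes did not pass. Per1 differed by -0.33 (adjusted p 0.251) and Cry1 by -0.69 (adjusted p 0.227), both with overlapping groups. Per2 read -0.71, -0.70 and -1.09 against -0.51, -0.66 and -0.56, a difference of 0.26 in the other direction (adjusted p 0.303). Per3, Cry2 and Bhlhe40 lay between -0.08 and 0.01, and Bhlhe41 at -0.47 (adjusted p 0.425). The list median was -0.40, and -0.29 without CT12 mouse 11.

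The activators gave no call among 4 members. An unadjusted limma p under 0.05 was reached by 2 of them, beside 16.6% of all genes. Arntl read 0.65, 0.66 and 0.80 against 1.07, 1.08 and 1.12, a difference of 0.39 (SE 0.11) that did not pass after adjustment (p 0.154), although the groups did not overlap. Clock differed by 0.17 (adjusted p 0.29). Npas2 read -5.75 in CT12 mouse 11 and -3.31 to -2.68 in the other 5 mice, so its difference of 0.94 became 0.02 without that mouse.

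Of the D-box and ROR factors, 0 of 7 passed. Dbp and Rora, 2 of the 7, had an unadjusted limma p under 0.05, beside 16.6% of all genes. The output activator Dbp read 5.57, 5.92 and 5.58 against 4.50, 5.02 and 4.69. Every night value was below every dusk value. The difference was -0.95 (SE 0.17, adjusted p 0.0532), and -0.84 without CT12 mouse 11 (adjusted p 0.0791); with the slide as a block the adjusted p was 0.0471. Tef differed by 0.21, Hlf by 0.00 and the D-box repressor Nfil3 by 0.44, none of them past the threshold. Rora read 2.11, 3.08 and 1.49 against 0.72, 0.90 and 0.55 (difference -1.50, adjusted p 0.102). Rora is also one of the 9 thalamic markers, which were highest in CT12 mice 10 and 11, and the part of those markers in its difference was not tested.

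Kinases and ubiquitin ligases that time the repressors gave 0 calls among 9 members. An unadjusted limma p under 0.05 was reached by 3, beside 16.6% of all genes. Usp2, a clock-controlled deubiquitinase, read 2.84, 3.19 and 2.78 against 2.44, 2.54 and 2.21 (difference -0.54, adjusted p 0.103, and 0.049 with the slide as a block). Of 21 clock-controlled outputs 0 passed, and 10 had an unadjusted limma p under 0.05, beside 16.6% of all genes. Of the 10, 8 were lower. The median of the outputs was -0.19, and -0.15 without CT12 mouse 11.

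The promoter window of Ciart, which holds 3 E-boxes, 116, 58 and 44 bases before the gene start, is shown for comparison with the ER windows. An E-box was found in 6.02% of all windows, in 4 of 25 windows of genes lower at CT18 and in 3 of 42 of genes higher. The window (chr3:95882229-95882478, minus strand) reads as follows, E-boxes in capitals:
Ciart: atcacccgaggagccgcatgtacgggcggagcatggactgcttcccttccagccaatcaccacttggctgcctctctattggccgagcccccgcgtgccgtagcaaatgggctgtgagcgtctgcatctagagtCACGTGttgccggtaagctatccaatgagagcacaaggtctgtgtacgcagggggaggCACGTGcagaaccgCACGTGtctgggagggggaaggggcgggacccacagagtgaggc

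Genes responsive to glucocorticoids, the hormones of the adrenal cortex, included 4 calls. Of 30 measured, 4 were lower at CT18 and 0 higher, beside 0.12% of all genes called lower, and 8 lay above 0, with a median of -0.34 against 0 over all genes, and -0.28 without CT12 mouse 11. There were 4 calls without that mouse, 2 with the slide as a block and 1 with the block and without the mouse. A further 10 had an unadjusted p under 0.05 and a negative difference, beside 16.6% of all genes in either direction. The list was written with earlier results of these data known, so its count is no independent evidence of direction. The glucocorticoid element, searched as GNACA and TGTNC with 3 bases between them, lay in 0.387% of all windows and in 0 of 25 windows of lower genes.

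Ada, adenosine deaminase, which removes extracellular and cellular adenosine, had the smallest p of all genes with all libraries. Its probe lies at chr2:163552581-163552640 on mm9, minus strand. It read -1.14, -1.27 and -1.40 at CT12 and -2.89, -2.65 and -2.95 at CT18. The groups lay more than 1 log2 unit apart. Its level was 2.95-fold lower (difference -1.56, SE 0.14, adjusted p 0.00625; 0.0158 without CT12 mouse 11). Sgk1, a kinase induced by glucocorticoids, read 3.88, 3.69 and 3.95 against 2.35, 2.94 and 2.59, a 2.32-fold lower level (difference -1.22, SE 0.20, adjusted p 0.0425). Its groups did not overlap, yet the adjusted p was 0.0542 without CT12 mouse 11 and 0.0628 with the slide as a block.

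Arrdc2, an arrestin-domain protein, read 2.78, 2.95 and 2.80 against 1.75, 2.12 and 1.66 (difference -1.0, SE 0.14, adjusted p 0.0263; -0.95 and 0.0398 without CT12 mouse 11). Hif3a, a member of the hypoxia-inducible factor family, read 0.69, 0.18 and 0.38 against -0.59, -0.82 and -1.61 (difference -1.42, SE 0.23, adjusted p 0.0413), and its 3 probes all pointed down, from -1.56 to -0.77. Its adjusted p was 0.0442 without CT12 mouse 11 and 0.0531 with the slide as a block. Map3k6 was called only without CT12 mouse 11 (-0.84, adjusted p 0.0398). The classical targets divided. Tsc22d3 read 4.01, 4.40 and 4.18 against 3.60, 3.61 and 3.33 (-0.68, adjusted p 0.0682) and Nfkbia differed by -0.77 (adjusted p 0.0682), both without overlap. Fkbp5 differed by 0.50 with all mice and by -0.05 without CT12 mouse 11, and Klf9 by -0.14, all short of the threshold.

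Cold-inducible RNA-binding proteins, which mild cooling induces, were measured by 4 genes. At CT18 2 of them were called lower, beside 0.12% of all genes. Cirbp read 3.91, 4.36 and 4.16 at CT12 and 2.65, 3.12 and 2.76 at CT18. No night value reached a dusk value. The level was 2.46-fold lower (difference -1.30, SE 0.16, adjusted p 0.0206; -1.19 and 0.0291 without CT12 mouse 11), and the adjusted p was 0.00302 with the slide as a block. Rbm3 read 3.81, 4.31 and 4.13 against 2.99, 3.33 and 3.24 (difference -0.89, SE 0.15, adjusted p 0.0425), with all 3 probes in the same direction, from -0.96 to -0.41. Its call did not hold without CT12 mouse 11 (adjusted p 0.059) or with the slide as a block (0.0562). The other members, Rbm14 and Srsf5, differed by 0.29 and -0.20 (adjusted p 0.276 and 0.416).

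**Figure D4:**
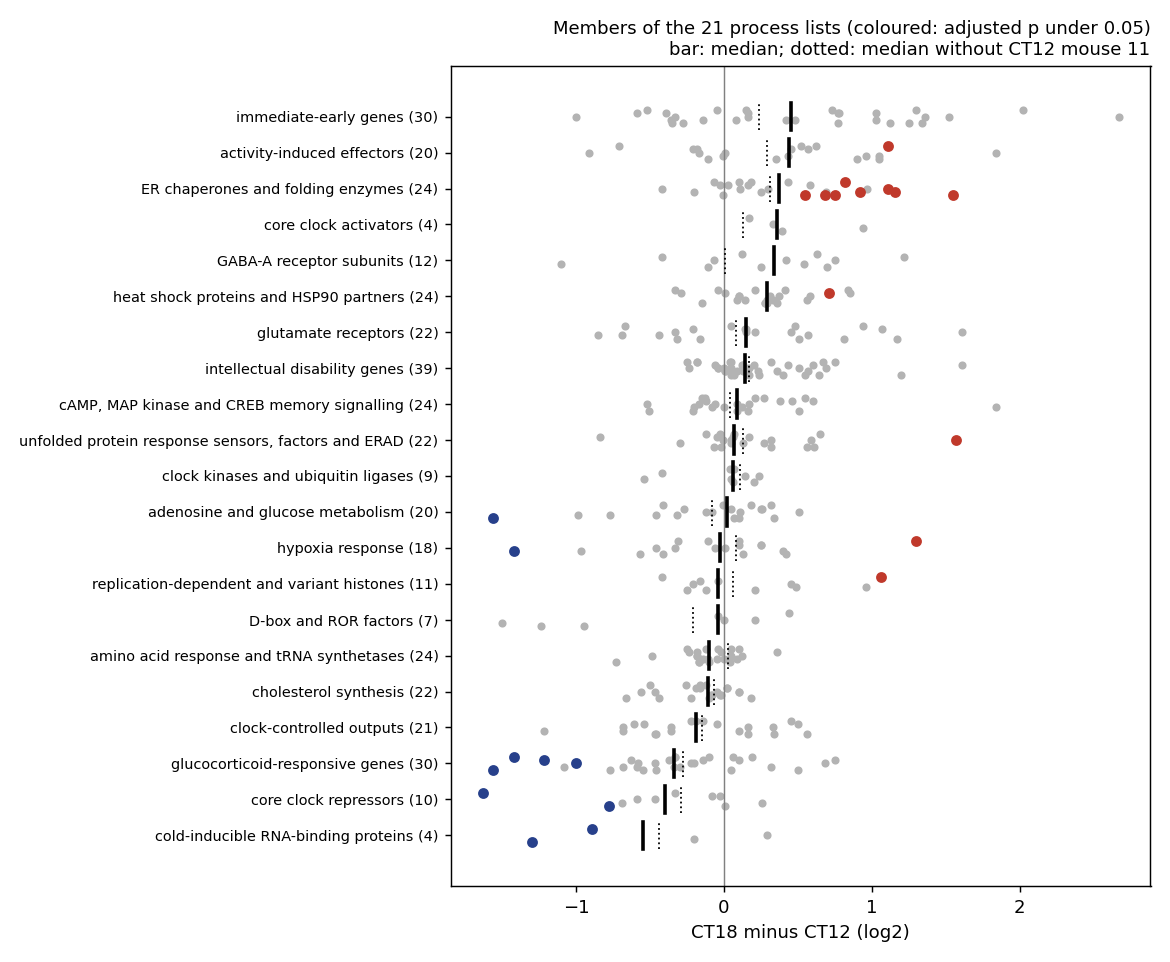
Difference between CT18 and CT12 (log2) of each member of the 21 process lists, number measured in brackets; red and blue points passed an adjusted p of 0.05, the bar is the list's median and the dotted bar the median without CT12 mouse 11. Called members gather in the ER chaperone list on the higher side and in the glucocorticoid, clock repressor and cold-inducible lists on the lower side.

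Genes switched on by neuronal activity were not called as a group. Among 30 immediate-early genes 0 passed. An unadjusted limma p under 0.05 was reached by 13, of which 10 were higher, beside 16.6% of all genes in either direction. Without CT12 mouse 11 it was reached by 6 higher and 2 lower members, beside 13.8% of all genes. The list median of 0.45 became 0.24 without CT12 mouse 11. By slide it was 0.17, 1.28 and 0.02, slide 2 being the one that holds CT12 mouse 11. Arc differed by 1.25 and Egr1 by 0.77 with all mice (adjusted p 0.273 and 0.318), and by 0.60 and 0.41 without CT12 mouse 11. Fos differed by 0.16 (adjusted p 0.945).

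The later, activity-induced effectors gave 1 call among 20, beside 0.282% of all genes called higher. The called gene was Inhba, which encodes a subunit of activin. Inhba read -0.96, -0.59 and -0.95 at CT12 and 0.18, 0.21 and 0.43 at CT18. The groups were apart, and the level was 2.15-fold higher (difference 1.11, SE 0.13, adjusted p 0.0165; 1.23 and 0.0121 without CT12 mouse 11). Bdnf, the neurotrophin, read 0.14, -0.19 and 0.44 against 0.91, 1.21 and 0.96 (0.90, SE 0.18, adjusted p 0.0725), without overlap. The phosphatase gene Dusp6 read 2.77, 1.72 and 3.09 against 3.53, 3.56 and 3.65 (1.05, adjusted p 0.133, and 0.0654 without CT12 mouse 11).

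Receptors and memory signalling showed no called member. Of 22 glutamate receptor genes 0 passed and 6 had an unadjusted limma p under 0.05. Grin2b, an NMDA receptor subunit, read 1.96, -1.46 and 1.82 against 2.39, 2.33 and 2.42, so its difference of 1.61 fell to 0.49 without CT12 mouse 11 (adjusted p 0.0542). Gria1 went from 0.81 to 0.27 in the same way. Of 12 GABA-A subunits 0 passed and 6 had an unadjusted limma p under 0.05, and the list median of 0.34 became 0.01 without that mouse. Of 24 genes of cAMP, MAP kinase and CREB signalling 0 passed and 6 had an unadjusted limma p under 0.05. These receptor and signalling counts stand beside 16.6% of all genes with an unadjusted p under 0.05. Without CT12 mouse 11, 4 glutamate receptor genes reached it on the higher and 0 on the lower side. The GABA-A subunits then gave 2 higher and 1 lower, and the cAMP, MAP kinase and CREB genes 2 higher and 0 lower. The share of all genes there was 13.8% in either direction.

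Genes linked to intellectual disability gave 0 calls among 39. An unadjusted limma p under 0.05 was reached by 14, all higher at CT18, beside 16.6% of all genes in either direction. Of the 39, 32 lay above 0, against 50.6% of all genes, and the median was 0.14, and 0.17 without CT12 mouse 11, where 46.9% of all genes lay above 0. The median ranged from 0.11 to 0.19 over the alternatives. Auts2 read 1.54, 1.16 and 1.42 against 1.78, 1.79 and 1.84 (0.43, adjusted p 0.105), Arhgef6 differed by 0.51 (adjusted p 0.104), and Ankrd11 by 0.24 (adjusted p 0.187), each without overlap. Fmr1 and Ube3a differed by 0.17 and 0.04 (adjusted p 0.479 and 0.886).

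In metabolism, P4ha1 was the called higher gene among 18 hypoxia-responsive genes, beside 0.282% of all genes called higher. P4ha1 encodes a catalytic subunit of collagen prolyl hydroxylase. It read 0.21, -0.38 and 0.22 at CT12 against 1.36, 1.26 and 1.32 at CT18. The night values spanned only 0.10 log2 units. P4ha1 was 2.46-fold higher (difference 1.30, SE 0.15, adjusted p 0.0165), and without CT12 mouse 11 its adjusted p was 0.00205. Hif3a, described above, was the only other call of that list, and the median was -0.03. The glucose transporter gene Slc2a1 read 3.52, 3.72 and 3.46 against 3.05, 3.21 and 3.05 (-0.46, adjusted p 0.0925). Cholesterol synthesis gave 0 calls among 22 members and 3 at an unadjusted limma p under 0.05, beside 16.6% of all genes. The amino acid response with the tRNA synthetases gave 0 among 24, with 0 at an unadjusted p under 0.05.

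Of the histone genes, 1 of 11 was called higher, beside 0.282% of all genes. The called gene was H2bc6, which read -0.59, -0.53 and -1.0 against 0.40, 0.17 and 0.49 (1.06, SE 0.14, adjusted p 0.0248). Without CT12 mouse 11 it differed by 1.14 (adjusted p 0.0267). H3c15, outside that list, read 0.59, -0.03 and 0.25 against 1.63, 1.28 and 1.33 (1.14, adjusted p 0.0355; 0.99 and 0.0465 without that mouse). Histone genes of a class are nearly identical, and a probe may report several of them, so the identity of the member is uncertain.

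Other genes with large differences belonged to none of the process lists. On the higher side were Adam8, a membrane metalloprotease, with -0.40, -1.29 and -0.31 against 1.24, 0.83 and 1.24 (1.77, SE 0.23, adjusted p 0.0248), and Mdga1, a cell-surface protein that binds neuroligins, with 2.41, 1.51 and 2.15 against 3.44, 3.34 and 3.49 (1.40, SE 0.20, adjusted p 0.0267). Both remained called without CT12 mouse 11, where they differed by 1.46 and 1.14. Noxred1 (1.32, adjusted p 0.0165), the protease inhibitor gene Serpina3g (1.53, adjusted p 0.0413), the adaptor gene Dok3 (1.18, adjusted p 0.0282), the actin-severing Scin (1.15, adjusted p 0.0272) and Rnf32 (1.20, adjusted p 0.0497) were also higher. None of these 7 had overlapping groups. Noxred1, Dok3, Scin and Rnf32 passed without CT12 mouse 11 too (adjusted p 0.0267, 0.0165, 0.0398 and 0.0291). Only genes with a symbol in the RefSeq table were named by size, and called features without one held larger differences, such as 1700121C10Rik (2.24, adjusted p 0.0396). That feature was well above background on all 3 CT18 arrays but on only 1 of the 3 CT12 arrays. It passed without CT12 mouse 11 (1.78, adjusted p 0.0267) but not with the slide as a block (adjusted p 0.0563).

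On the lower side the largest difference of a gene with such a symbol was that of the unannotated transcript 5033421B08Rik, with -3.66, -3.33 and -2.35 against -5.56, -5.11 and -5.16 (-2.17, SE 0.31, adjusted p 0.0282). Potegl (-1.53, adjusted p 0.0481), the kinase gene Dapk2 (-1.38, adjusted p 0.0355), the phospholipase gene Pla2g4e (-1.26, adjusted p 0.0266), the troponin gene Tnni1 (-1.25, adjusted p 0.0266), Slamf9 (-1.24, adjusted p 0.0326) and A330015K06Rik (-1.14, adjusted p 0.0306) were also lower, without overlap. Of the 3 CT18 arrays, 5033421B08Rik and Potegl were each well above background on only 2. Nxnl2 was well above background on 0 of the 3 CT18 arrays and on 2 of the 3 CT12 arrays, which gives a level at least 1.31-fold lower at CT18 (adjusted p 0.0411). With the slide as a block Rnf32, Dapk2, Slamf9 and Nxnl2 did not pass (adjusted p 0.0628, 0.0535, 0.0509 and 0.0526). Serpina3g and Potegl did not pass without CT12 mouse 11 (adjusted p 0.0654 for both), while the other 7 lower genes did, with adjusted p from 0.0267 to 0.0477.

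Some genes passed only without CT12 mouse 11. Ugt2b5, a glucuronosyltransferase, was not well above background on any CT18 array and read -4.80 and -4.17 in CT12 mice 10 and 12. Its level was at least 1.90-fold lower at CT18. It was not well above background in CT12 mouse 11, which read -6.81, and its means at CT0 and CT6 were -7.33 and -7.47, so it entered the fit only through the 2 mice in which it was high and no p is given. Tnfrsf25, a death-domain receptor, read 2.53, -1.43 and 2.51 against 3.82, 3.26 and 3.86 and was called without that mouse (1.13, adjusted p 0.0465; 0.214 with it). Dgat2l6 also passed there (1.06, adjusted p 0.0398, against 0.165 with that mouse), but was well above background on only 1 of the 3 CT12 arrays.

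The cell type and tissue lists were nearly without calls. With all libraries 0 of the 151 marker genes tested passed in the 19 lists. An unadjusted limma p under 0.05 was reached by 15 on the higher and 23 on the lower side, beside 16.6% of all genes in either direction. Several lists had a median difference away from 0. Without CT12 mouse 11 the median difference was -1.1 for thalamic, -1.01 for choroid plexus and -0.58 for cerebellar markers. It was 0.44 for dentate granule cell, 0.39 for forebrain transcription factor and 0.31 for excitatory neuron markers. Some lists differed between CT12 mice 10 and 12, on the scale relative to each gene's median over the 12 arrays. Thalamic markers had medians of 1.43 and 0.14, and choroid plexus markers 5.03 and -0.41 (4.01 in CT18 mouse 14). Forebrain transcription factors had -0.58 and -0.01, and excitatory neuron markers -0.64 and 0.16. Dentate granule cell markers had -0.09 and -0.35, and cerebellar markers -0.04 and 0.21. Without CT12 mouse 11, 1 dentate granule cell marker, Trpc6 (0.93, adjusted p 0.0398), and 1 endothelial marker, the tight-junction gene Cldn5 (0.79, adjusted p 0.0355), were higher at CT18. Cldn5 read 2.61, 3.04 and 2.87 against 3.58, 3.45 and 3.56. The 9 endothelial markers had medians between -0.21 and 0.09 in the 6 libraries. The brightest astrocyte markers were Aldoc, S100b and Slc1a2, and the summed signal of the 8 astrocyte markers was 335, 555 and 464 at CT12 and 346, 390 and 407 at CT18. The 9 oligodendrocyte markers had a median difference of -0.57, and -0.37 without CT12 mouse 11, with summed signals of 339, 444 and 320 against 295, 293 and 256. Without CT12 mouse 11 the median differences of the astrocyte, oligodendrocyte precursor and microglia lists were -0.03, 0.06 and 0.10. The shifts of the oligodendrocyte list and of the other lists lay beside the results above, and their part in them was not tested.

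The called genes were also set against the rest of the day. Of the 68 genes higher at CT18, 52 had every CT18 mouse above every CT0 and CT6 mouse, and 33 had every CT12 mouse below them. Of the 29 lower genes, 18 had every CT12 mouse above every CT0 and CT6 mouse and 11 had every CT18 mouse below them. These shares follow in part from the call itself and carry no test. Hspa5 lay between 3.99 and 4.66 in the 6 CT0 and CT6 mice and Sdf2l1 between -0.76 and 0.17, so both were highest at CT18. Ada lay between -2.75 and -2.25 there, below all CT12 mice. Cirbp lay between 3.12 and 4.09 and Nr1d1 between 0.16 and 1.10, overlapping the CT12 mice. The same fit called 97 genes between CT18 and CT12, 32 between CT18 and CT6 14 between CT12 and CT0, 5 between CT12 and CT6, and 0 between CT18 and CT0 and between CT6 and CT0; these pairs share libraries, and their counts were not compared by a test. Without CT12 mouse 11 the counts were 121, 296, 13, 7, 5 and 0.

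**Figure D5:**
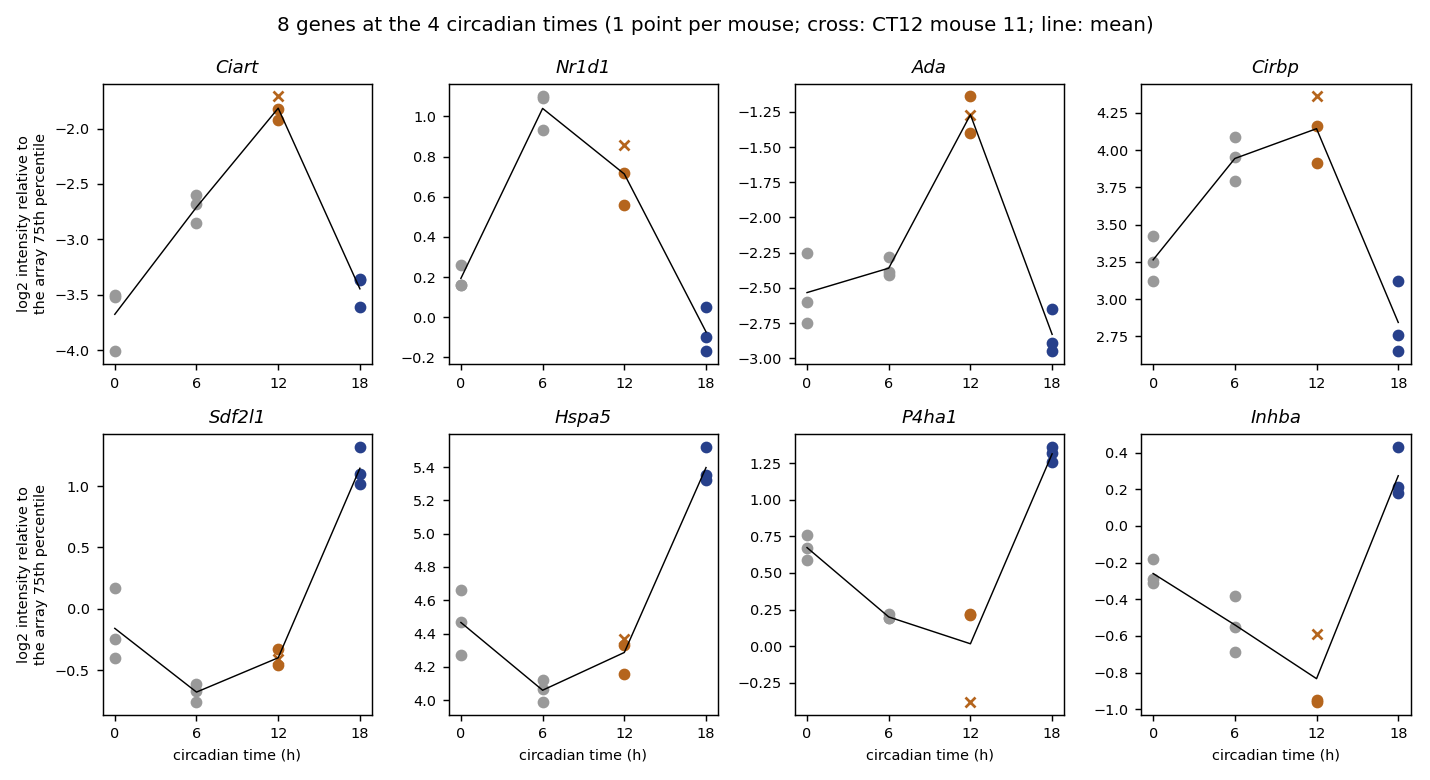
Values of 8 genes in every mouse at the 4 circadian times (horizontal, hours), on the log2 scale set to 0 at the 75th percentile of each array, with the mean as a line and CT12 mouse 11 as a cross. Ciart and Ada are highest at CT12, Nr1d1 is high at CT6 and CT12, and Sdf2l1, Hspa5, P4ha1 and Inhba are highest in the 3 CT18 mice.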

How the data were processed

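Total RNA of 12 hippocampus samples was labelled with Cy3 and hybridised to 1-colour Agilent arrays. Per the file headers the authors quantified spots with Agilent Feature Extraction 10.7.3.1; the deposited processed signal is an intensity, background-subtracted and not scaled between arrays, and probe coordinates are on mm9. Spot flags, which per the file headers are 0 or 1, and the intensity around each spot were read too. The deposited value table holds log2 values whose scaling is not given in the sources used here; every column correlated best with its own array (r from 0.99), and it served as an alternative.

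Values here are log2 processed intensity, from which the 75th percentile of the non-control probes of the same array was subtracted. Outlier spots were left out and spots of a probe averaged. Of 55681 probes, 33965 were kept, those well above background on all arrays of at least 1 time (34091 without CT12 mouse 11). Each gene took its brightest probe by mean, giving 24084 genes, 16091 of them with a RefSeq symbol (names through a RefSeq table of GRCm38.p6: 26670 probes by accession, 2543 by symbol, 475 by synonym, the other 25993 under the array's name). The signal over background gives the depth, and the number of arrays limits the precision.

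With limma 3.58.1 in R 4.3.3, 1 fit gave the mean of each time over 12 arrays, and CT18 minus CT12 was tested by limma's moderated statistic with Benjamini-Hochberg adjustment over all genes. It was repeated without CT12 mouse 11. The code was tested on simulated data. Where all arrays of a group were not well above background for a gene, the fold is a lower bound from the lowest signal well above background. Named were the clock genes, up to 12 genes with a symbol in the RefSeq table and the largest difference in each direction in either fit, the genes of smallest p in each other list (4, or 10 of the intellectual disability list), and as examples some list members and marker genes chosen after their values were seen. Promoters are RefSeq windows of up to 5 leading list members, at most 2 from a list; those of Ada and P4ha1 held no motif but CCACG and are not printed. The D-box TTANGTAA, cAMP element TGACGTCA and ROR element AGGTCA were also searched, and lay in 1, 1 and 2 of the 42 windows of higher genes and in 0, 0 and 3 of the 25 of lower genes, beside 2.06%, 1.55% and 14% of all windows. The comparison and the lists were chosen with earlier results of these data known. Alternatives covered scaling, background, filter, probe choice, variance model, slide, arrays fitted and each mouse left out.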

Additional observations from a re-analysis of the deposited data

How the results depend on the processing

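The count of 97 genes called between CT18 and CT12 moved with the processing, and no named gene that was called changed direction. It was 125 with quantile normalization, 121 with the deposited value table, 105 with a stricter filter, 76 with the mean of a gene's probes and 81 with a robust variance. It was 10 with median centring (2415 at an unadjusted p under 0.05), 3 without a filter on dim probes, 60 with each probe on its own, 23 when adjusted over all 6 pairs of times, 161 with normexp background correction, 158 with an intensity trend and 279 with array weights (63.1% higher). The cause was not tested. The share of higher calls, 70.1%, was 80% with median centring, 59.1% with the slide as a block, 33.3% without a filter on dim probes (3 calls), 30.8% without CT18 mouse 15 (13 calls), 81.2% without CT6 mouse 7 (16 calls) and 49.6% without CT12 mouse 12. Without CT12 mouse 11 it was 75.2%, or 50.9% with the block, 42.4% without CT12 mouse 10 and 26.8% without CT12 mouse 12. Limma fits on only the 6 arrays compared called 0 genes, with 1949 at an unadjusted p under 0.05, or 2611 with the slide as a block; these have fewer samples. Leaving out 1 mouse at a time gave 0 to 1227 calls. An alternative chosen after seeing the data, without slide 2 and with the slide as a block, called 0 (2832 unadjusted). The count of 121 without CT12 mouse 11 was 125 with quantile normalization, 124 with the deposited table, 53 with the slide as a block and 0 on only the 5 arrays compared (2319 unadjusted); leaving out a further mouse gave 2 to 168, with 14 without CT18 mouse 14, 40 without CT18 mouse 15 and 2 without CT18 mouse 16.

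Over the other 15 alternatives Ciart was called in 12, Ada and Sdf2l1 in 11 and Hspa5 in 10, with adjusted p up to 0.441 for Ada, Ciart and Sdf2l1 and 0.452 for Hspa5. Of 3043 values of the named genes under the alternatives, 2523 kept their side of the threshold without a change of sign, 437 lost the call, 68 gained one and 15 changed sign. These 15 belong to 8 genes that were not called in either setting. With 1 mouse left out at a time the difference ran from -0.03 to 0.05 for Bhlhe40, -0.08 to 0.04 for Cry2, -0.02 to 0.30 for Fbxw11, -0.03 to 0.27 for Iars, -0.16 to 0.03 for Per3 and -0.21 to 0.24 for Rorb. The mean of a gene's probes gave -0.24 for Btrc and 0.04 for Rorb, median centring 0.03 for Cry2 and 0.01 for Rorb, array weights 0.01 for Cry2 and 0.04 for Per3, and the fit without slide 2 -0.09 for Npas2. No paired analysis was possible because the replicate numbers in the labels are not shared between times; the slide served as the block. With 3 mice a time, 1 library at CT12 unlike hippocampus and time confounded with array position and hours in darkness, the calls hold for these libraries.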

Other observations

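Among the genes called but in no list, chosen after their values were seen, several act on RNA. The splicing regulator Srsf10 read -0.30, -0.36 and -0.24 at CT12 and 0.37, 0.32 and 0.40 at CT18 (0.66, SE 0.08, adjusted p 0.0206 by limma). Its 3 probes had the same direction but ran from 0.14 to 0.66, the value given being the largest. Sfpq, a nuclear RNA-binding protein, differed by 0.53 (adjusted p 0.0355), Srrt by 0.60 (adjusted p 0.0481) and Rbm28 by 0.69 (adjusted p 0.0435). Rbm28 did not pass without CT12 mouse 11 (0.0654), and the other 3 did (from 0.0267 to 0.0418). Srsf6 and the nonsense-mediated decay factor Upf2 passed only without CT12 mouse 11 (0.64 and 0.50, adjusted p 0.0398 for both), and the 2 probes of Srsf6 differed in sign.

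Some higher genes belong to the synapse or to secretion. Doc2b, a calcium sensor of vesicle release, read 2.09, 2.21 and 2.35 at CT12 and 2.95, 3.14 and 3.28 at CT18 (0.91, SE 0.12, adjusted p 0.0218). Lman2l, a cargo lectin of the early secretory pathway, differed by 0.68 (adjusted p 0.0342), the AMPA receptor partner Shisa6 by 0.84 (adjusted p 0.0413) and the serotonin receptor Htr5b by 0.99 (adjusted p 0.0425). Lower at CT18 were the cytokine Il33, with 2.27, 2.38 and 2.14 against 1.60, 1.32 and 1.03 (-0.95, adjusted p 0.0342), and the death receptor Fas (-0.94, adjusted p 0.0481). Doc2b, Lman2l and Htr5b passed without CT12 mouse 11 (adjusted p 0.0311, 0.0465 and 0.0467), whereas Shisa6, Il33 and Fas did not (0.0642, 0.0531 and 0.07). Shisa6 and Fas did not pass with the slide as a block either (0.0584 and 0.0628). These genes are examples from the called set, and no enrichment was tested.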
